A study of Rattus norvegicus with 2 samples.

Results

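The genes described are 10 enzymes of the glutathione and antioxidant defence of the rat heart: Gclc, Gclm, Gstm1, Gstm2, Gstp1, Gpx1, Cat, Sod1, Sod2 and Hmox2. Their probe sets were found by the gene symbol of the platform's annotation, and every probe set that carried 1 of these 10 symbols was taken. All 10 genes were on the array, with 23 of the 7006 probe sets that have a single symbol, out of 4736 gene symbols in all. No probe set that carried several symbols included a member.

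Heart RNA of Dahl salt-sensitive rats was compared between diets. This strain becomes hypertensive when it eats salt. The high-salt array held male heart RNA at 17 weeks of age, with chronic heart failure per the labels, and the low-salt array male heart RNA of the same strain and age, for which no disease is given. Strain, sex and age were thus shared and diet, with its outcome, was the difference. There was 1 array per diet, and whether an RNA came from 1 animal or several, and from which chamber, is not given in the sources used here.

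Glutathione is a small thiol peptide that cells keep at high levels. Glutamate-cysteine ligase, made of the catalytic subunit Gclc and the modifier subunit Gclm, runs the rate-limiting step of its synthesis. Glutathione S-transferases couple it to reactive compounds, and glutathione peroxidases use it to reduce peroxides. Superoxide dismutases turn superoxide into hydrogen peroxide, which catalase and the peroxidases then remove. Heart muscle makes superoxide in its many mitochondria and is known to hold little catalase compared with the liver. Many of these genes are known targets of the transcription factor Nrf2 (Nfe2l2), which binds the antioxidant response element.

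The deposited values are intensities on a linear scale, and the arrays had the same 2% trimmed mean of 100.2. A noise floor of 126.4, set at the 95th percentile of the magnitude of the intensities below 0, stood in for a detection call, and 20.0% of the probe sets on the high-salt array and 20.3% on the low-salt array reached it. A probe set counted as measured where at least 1 array reached the floor, which held for 1955 probe sets. Of the heart muscle markers, 8 of 9 genes on the array were measured, with summed intensities of 43641 under high salt and 44865 under low salt; only Ryr2 was under the floor. A diet had 1 array, so no replicate spread and no p-value exist, and every difference compares these 2 arrays; their number limits the precision. The one error available was the disagreement between probe sets of the same gene, a pooled SD of 0.22 in the log2 ratio over 231 genes with several probe sets above the floor on both arrays, or 1.17-fold. It holds no variation between animals. In whole tissue, fewer cells of a type and less RNA per cell cannot be told apart.

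The antioxidant genes differed in both directions between the hearts, by less than 2-fold in every measured probe set. Of the 23 probe sets, 13 from 7 genes were measured, and each of the 13 was above the noise floor on both arrays, so that none was a bound. No probe set was 2-fold higher and none 2-fold lower, where 3.53% and 1.69% of all measured probe sets were. At 1.5-fold, 1 was higher, for Gstm1, and 3 were lower, for Gstp1, Cat and Sod2, where 17.7% of all measured probe sets passed 1.5-fold in either direction, 171 higher and 176 lower. In 9 of the 13 the ratio was below 1, compared with 54.3% of all measured probe sets. The median of the log2 ratios, high-salt over low-salt intensity, was -0.21 for these 13 and -0.04 for all 1955. In 10 of the 13 the difference was larger than the SD of 0.22, as in 53.5% of all measured probe sets. So few of all measured probe sets passed 2-fold that 0 of 13 is no result about these genes. The other shares lie above the background, but the 13 probe sets come from 7 genes and are not independent of each other. The background is also an unlike set. Of the 1955 probe sets, 1561 were above the floor on both arrays, as all 13 were, and the ratios of the others are bounds.

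**Figure D1:**
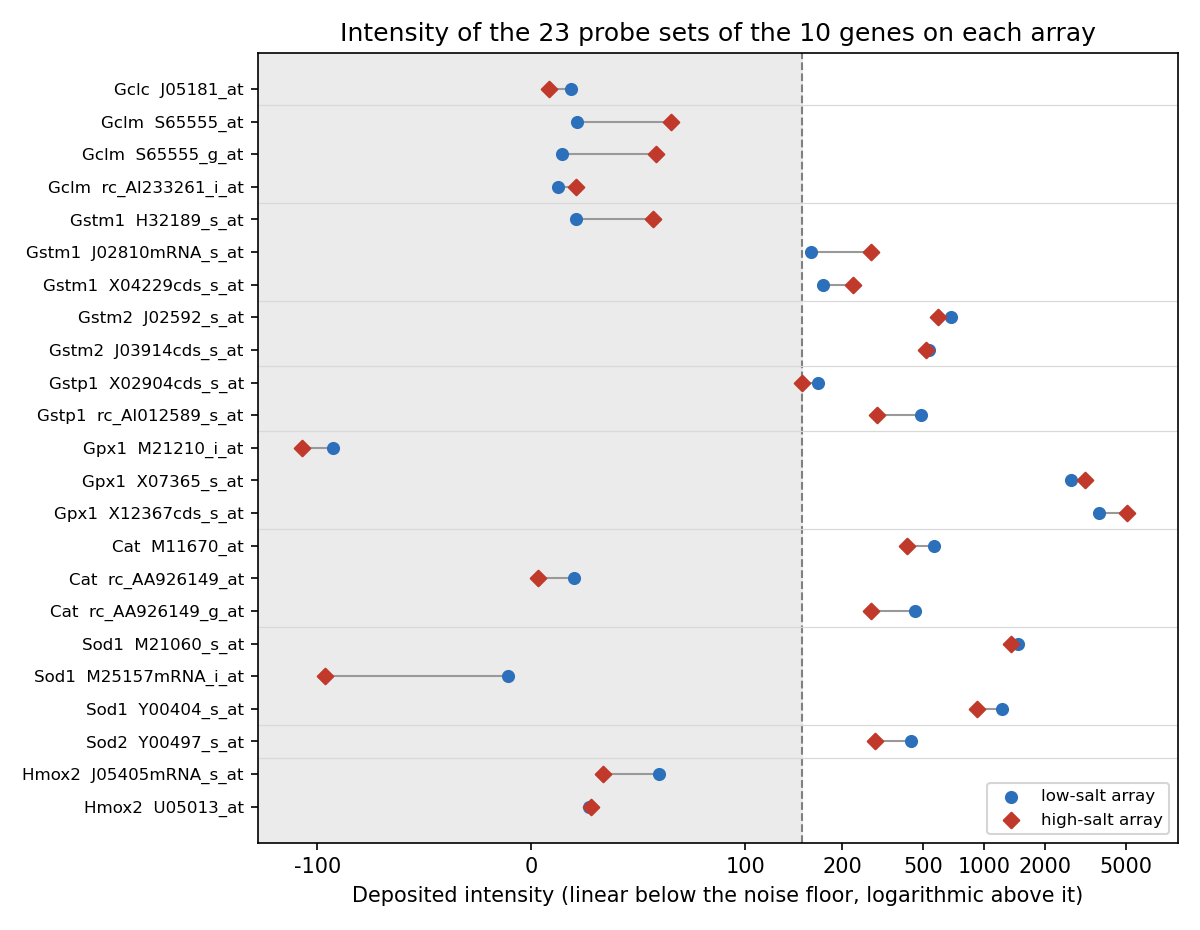
Deposited intensity (horizontal axis, linear below the noise floor of 126.4 and logarithmic above it) of each of the 23 probe sets (rows, grouped by gene) on the low-salt array (circles) and the high-salt array (diamonds), with the region under the floor shaded and a line joining the 2 values of a probe set. The 10 probe sets in the shaded region include all of Gclc, Gclm and Hmox2, and Gpx1 is the gene with the probe sets farthest to the right.

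Promoter windows are shown for 4 genes: Gstm1 and Gpx1, the genes that read higher in the high-salt heart, and Gstp1 and Sod2, which read lower and held the core of the antioxidant response element. RefSeq sequences of the build GRCr8 were used, from 250 bases before to 50 bases after a gene's start, 300 in all, and all 10 genes matched by symbol, Hmox2 with 2 windows. The core was searched as TGACNNNGC on both strands, and capitals mark a match. It occurred in 4 of the 11 windows, those of Gclm, Gstp1, Sod2 and 1 of Hmox2, and in 12.1% of all 33469 promoter windows. The match began 61 bases before the start in Gstp1 and 35 bases before it in Sod2, where it lies on the opposite strand. Gstm1 (chr2:198343334-198343633, minus strand), Gpx1 (chr8:117905212-117905511, plus strand), Gstp1 (chr1:210769656-210769955, minus strand) and Sod2 (chr1:50050119-50050418, minus strand) are printed 5′ to 3′.
Gstm1: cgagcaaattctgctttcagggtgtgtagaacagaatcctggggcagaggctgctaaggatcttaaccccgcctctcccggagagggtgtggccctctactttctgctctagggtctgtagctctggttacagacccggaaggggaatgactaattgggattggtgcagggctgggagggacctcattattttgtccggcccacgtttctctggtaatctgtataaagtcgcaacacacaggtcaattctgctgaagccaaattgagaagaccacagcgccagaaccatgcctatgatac
Gpx1: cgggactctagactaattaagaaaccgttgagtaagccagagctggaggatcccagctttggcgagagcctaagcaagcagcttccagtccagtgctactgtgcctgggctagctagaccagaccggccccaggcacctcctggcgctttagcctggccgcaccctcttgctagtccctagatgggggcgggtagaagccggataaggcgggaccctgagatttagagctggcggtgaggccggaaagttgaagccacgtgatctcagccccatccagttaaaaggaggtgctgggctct
Gstp1: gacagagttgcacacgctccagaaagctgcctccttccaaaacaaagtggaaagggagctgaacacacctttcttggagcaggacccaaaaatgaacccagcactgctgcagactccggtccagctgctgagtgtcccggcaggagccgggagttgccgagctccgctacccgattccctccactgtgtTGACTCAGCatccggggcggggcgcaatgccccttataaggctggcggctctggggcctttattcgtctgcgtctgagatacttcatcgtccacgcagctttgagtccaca
Sod2: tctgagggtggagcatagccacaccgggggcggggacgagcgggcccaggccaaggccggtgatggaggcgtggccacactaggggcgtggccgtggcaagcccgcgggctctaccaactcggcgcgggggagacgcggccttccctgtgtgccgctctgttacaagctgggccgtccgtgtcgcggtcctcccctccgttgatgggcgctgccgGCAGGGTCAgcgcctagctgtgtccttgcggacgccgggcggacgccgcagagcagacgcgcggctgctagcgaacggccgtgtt
A match is a run of letters and not a shown binding site. The core letters are absent from the windows of Gstm1 and Gpx1, and also from those of Cat, Sod1 and Gstm2, which read lower. Their absence says nothing of elements outside the windows.

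Glutathione synthesis was too dim on these arrays to be compared. The catalytic subunit Gclc has 1 probe set, which read 8.5 under high salt and 18.5 under low salt. The modifier subunit Gclm has 3, which read 65.2, 58.4 and 21.0 in the high-salt heart and 21.5, 14.3 and 12.5 in the low-salt heart, in the order S65555_at, S65555_g_at and rc_AI233261_i_at. The high-salt value was the larger in each of the 3, but all 6 values lay under the noise floor, and S65555_at and S65555_g_at derive from the same accession. With a lower floor at 10.9, the 40th percentile of all values, these were 3.03-fold, 4.08-fold and 1.68-fold higher. At that floor 7.25% of 5707 probe sets were 2-fold higher and 7.62% were 2-fold lower, so an apparent 2-fold difference between dim values was common.

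Among the glutathione S-transferases the mu class gene Gstm1 read higher in the high-salt heart and the pi class gene Gstp1 lower. Probe set J02810mRNA_s_at of Gstm1 read 277.4 under high salt and 140.3 under low salt, a log2 ratio of 0.98 or 1.98-fold. It exceeded 96.7% of the 1561 probe sets above the floor on both arrays. The low-salt value was just above the noise floor, so the size of this ratio depends on the floor, and with a floor at the 99th percentile of the size of values below 0 the log2 ratio was 0.03. With quantile normalization or loess this probe set passed 2-fold. The second Gstm1 probe set, X04229cds_s_at, read 226.1 and 160.8, a log2 ratio of 0.49 or 1.41-fold. The third, H32189_s_at, was under the floor at 57.1 and 20.7. Both measured probe sets of Gstm1 were thus brighter on the high-salt array. Their log2 ratios differed by 0.49, where the SD of a single ratio was 0.22.

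Gstm2, another mu class transferase, stood close to even. Its probe set J02592_s_at read 591.4 under high salt and 684.4 under low salt, and J03914cds_s_at read 516.1 and 535.7. The log2 ratios were -0.21 and -0.05, both within the SD of 0.22. In RefSeq GRCr8 no protein-coding gene lies between Gstm1 and Gstm2, which are members of one cluster of related genes. All 5 of their probe sets have names ending in _s_at, a type that can hybridise to several related transcripts, and the share of each transcript in these readings was not tested. Gstm7, also of the mu class, read 281.6 and 249.0 (log2 ratio 0.18).

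Gstp1, the pi class transferase, read lower in both of its probe sets. The brighter, rc_AI012589_s_at, read 298.7 under high salt and 486.9 under low salt, a log2 ratio of -0.70 or 1.63-fold lower. Of the probe sets above the floor on both arrays, 4.87% had a lower ratio. The dimmer, X02904cds_s_at, read 127.1 and 152.1, a log2 ratio of -0.26, with the high-salt value barely above the noise floor. The brighter probe set differed by more than 3 times the SD of 0.22 and the dimmer by slightly more than the SD itself.

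**Figure D2:**
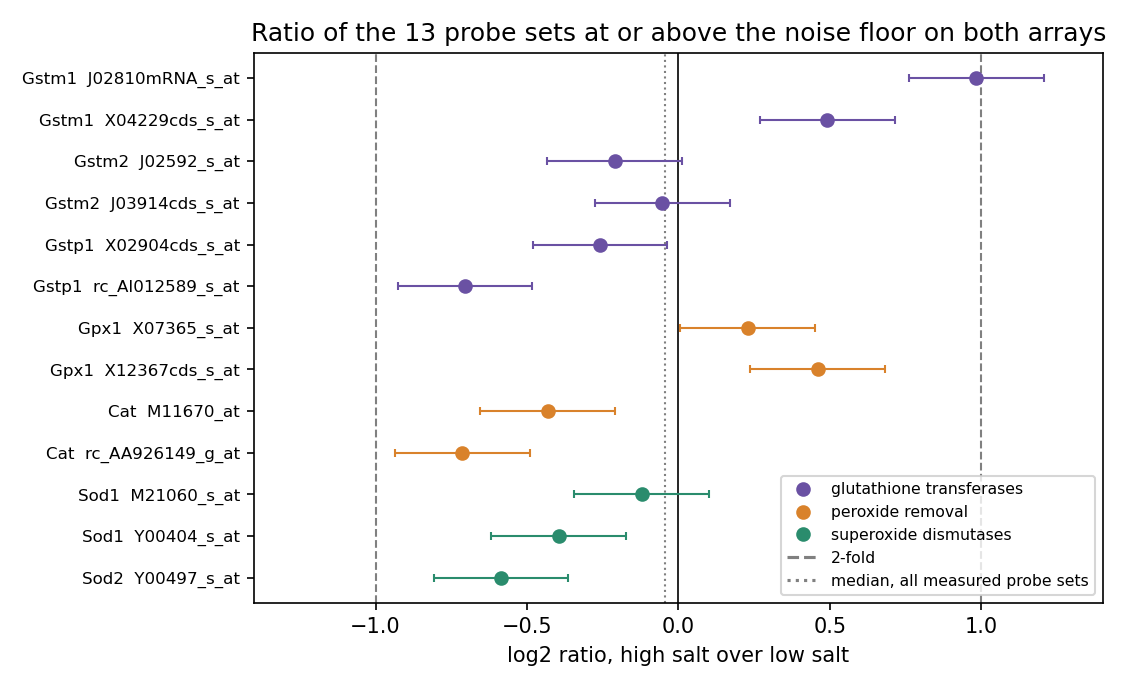
High-salt over low-salt log2 ratio (horizontal axis) for the 13 probe sets above the noise floor on both arrays (rows), coloured by role; bars are plus and minus the pooled SD of 0.22 between probe sets of a gene, dashed lines mark 2-fold and the dotted line is the median of all measured probe sets, -0.04. Gstm1 and Gpx1 lie to the right of 0 and the other 5 genes to the left, with no point past a dashed line.

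Of the enzymes that remove peroxide, glutathione peroxidase 1 read higher and catalase lower in the high-salt heart. Gpx1 encodes the selenium-containing peroxidase of cytosol and mitochondria. Its brightest probe set, X12367cds_s_at, read 5088.6 under high salt and 3698.6 under low salt, a log2 ratio of 0.46 or 1.38-fold. X07365_s_at read 3153.1 and 2691.0, a log2 ratio of 0.23, about the size of the SD. The third, M21210_i_at, was below 0 on both arrays at -107.2 and -92.7 and measured nothing. Both measured probe sets of Gpx1 therefore pointed the same way, at intensities far above the noise.

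Cat encodes catalase, the haem enzyme of peroxisomes that splits hydrogen peroxide. M11670_at read 418.9 under high salt and 565.1 under low salt, a log2 ratio of -0.43 or 1.35-fold lower. The probe set rc_AA926149_g_at read 277.3 and 454.9, a log2 ratio of -0.71 or 1.64-fold lower, which is the lowest of the 13. Its partner from the same accession, rc_AA926149_at, read 3.3 and 20.2 and was under the floor. The low-salt value was the larger in both measured probe sets.

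Red blood cells are rich in Gpx1, catalase and Sod1, and red cell transcripts differed strongly between these arrays. In the brightest probe set of each gene, all 4 red cell marker genes on the array, of 9 in the list, were 2-fold higher or more under high salt, with summed intensities of 8692 against 3288. None was under the floor on both arrays, and the list had a median log2 ratio of 1.78. The beta-globin gene Hbb read 6982.3 against 2910.5, and Alas2, which starts haem production in developing red cells, read 698.0 against 104.5. One probe set of Slc4a1, the red cell anion exchanger, gave 264.6 and 119.8, while another gave 168.3 and 174.8. The part of red cells in the Gpx1, Cat and Sod1 values was not tested.

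Both superoxide dismutases read lower in the high-salt heart. Sod2, the manganese enzyme of the mitochondrial matrix, has 1 probe set, Y00497_s_at, which read 290.7 under high salt and 436.3 under low salt. Its log2 ratio was -0.59, and 8.07% of the probe sets above the floor on both arrays were lower still. This value only just passed 1.5-fold. Over 7 other floors and scalings it ran from -0.59 to -0.53 on the log2 scale, and it was under 1.5-fold with median scaling and with loess.

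Sod1, the copper-zinc enzyme found mainly in the cytosol, was bright in a pair of probe sets. Y00404_s_at read 928.1 under high salt and 1220.8 under low salt, a log2 ratio of -0.40 or 1.32-fold lower. M21060_s_at read 1353.8 and 1471.9, a log2 ratio of -0.12, within the SD. The third, M25157mRNA_i_at, was below 0 on both arrays at -96.4 and -10.9. The measured pair pointed the same way, but only Y00404_s_at differed by more than the SD. The log2 ratio of Sod2 was below those of both Sod1 probe sets, by more than the SD for M21060_s_at and by less for Y00404_s_at. The SD is that of a single ratio, and a gap between ratios has a wider spread. The order of Sod1 and Sod2 is thus not resolved.

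Hmox2, the constitutive haem oxygenase, was not measurable. J05405mRNA_s_at read 33.4 under high salt and 59.5 under low salt, and U05013_at read 27.8 and 26.9, all under the noise floor. The inducible haem oxygenase Hmox1 was under it as well, at 115.2 and 77.6 in its brighter probe set.

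Probe sets of the same antioxidant gene pointed the same way wherever this could be read. In all 6 member genes with several probe sets above the floor on both arrays, these shared a direction, as they did in 189 of 231 genes of the array (81.8%). The gap between them ran from 0.16 (Gstm2) to 0.49 (Gstm1) in log2 ratio. The median gap was 0.28 in these 6 genes and 0.19 over the 231. So the direction of a gene was shared by its probe sets while its size was known less well, and for Gstm1 the gap was as large as the smaller of its ratios.

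**Figure D3:**
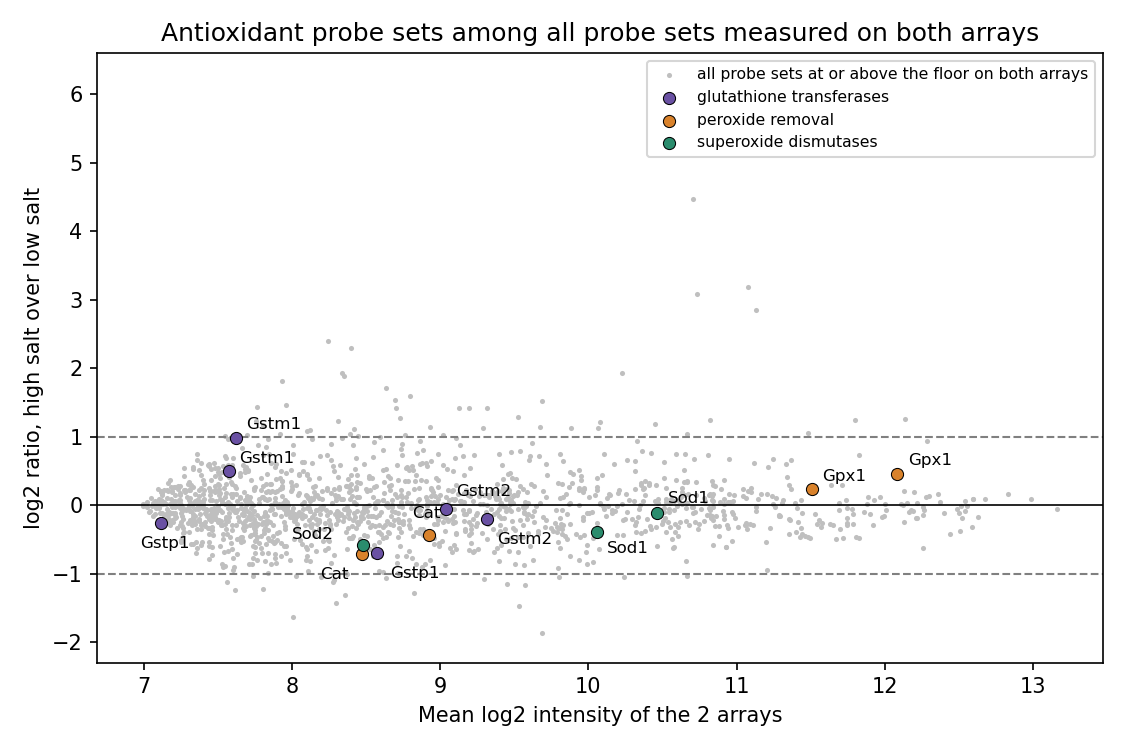
High-salt over low-salt log2 ratio (vertical axis) against the mean log2 intensity of the 2 arrays (horizontal axis) for the 1561 probe sets above the noise floor on both arrays (grey), with the 13 antioxidant probe sets coloured by role and labelled; dashed lines mark 2-fold. The antioxidant points lie within the grey cloud, Gstm1 nearest the upper dashed line and Gpx1 far to the right among the brightest.

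Other genes of glutathione, thiol and peroxide metabolism, from a list of 85, also went both ways. Of the 49 on the array, 27 were measured in their brightest probe set, and Slc3a2 was at least 2-fold higher, none 2-fold lower and 26 neither, against 3.55% and 1.90% of 1211 measured genes. At 1.5-fold, 4 were higher and none lower, against 9.33% and 9.50%. In 12 the ratio was above 1 and in 15 below, where 54.5% of all measured genes were below, with a median log2 ratio of -0.11 compared with -0.04 over all genes. That median turned to 0.14 with the floor at the 90th percentile of the size of values below 0, so the list has no settled direction.

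Slc3a2, the heavy chain of amino acid transporters that include the cystine importer, read 259.4 under high salt and 123.8 under low salt in its brighter probe set, at least 2.05-fold higher. Its other probe set read 140.8 and 92.9, at least 1.11-fold higher. Gpx3, the glutathione peroxidase secreted into plasma, read 1999.1 and 1187.8, a log2 ratio of 0.75, and its second probe set 413.6 and 287.0, a log2 ratio of 0.53. Both Gpx3 probe sets were thus higher by more than the SD.

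Mafk, a small Maf protein that pairs with Nrf2 on DNA, read 288.8 under high salt and 173.9 under low salt. Txnrd1, the cytosolic thioredoxin reductase, read 220.2 and 143.6, while Txnrd2, its mitochondrial relative, read 168.7 and 238.5. These are log2 ratios of 0.73, 0.62 and -0.50. Prdx1, a cytosolic peroxiredoxin, read 497.1 and 390.6 (log2 ratio 0.35). The mitochondrial thioredoxin Txn2 read 791.7 and 985.2, and Txnip, a binding partner of thioredoxin, 1393.0 and 1737.8, both with a log2 ratio of -0.32.

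Mgst3, a membrane-bound glutathione transferase and peroxidase, read 1271.7 under high salt and 1795.8 under low salt, a log2 ratio of -0.50. Cbr1, a carbonyl reductase, read 106.2 and 185.0, at least 1.46-fold lower. Selenop, the plasma carrier of selenium, read 334.0 and 438.6, and Anpep, a peptidase that takes part in glutathione breakdown, 170.8 and 218.8, with log2 ratios of -0.39 and -0.36. Nqo1 and Hmox1, which are among the classical Nrf2 targets outside the 10 genes, were under the floor in all their probe sets. So were Nfe2l2 itself, Gsr, which recycles oxidised glutathione, and Gss, which completes glutathione synthesis.

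**Figure D4:**
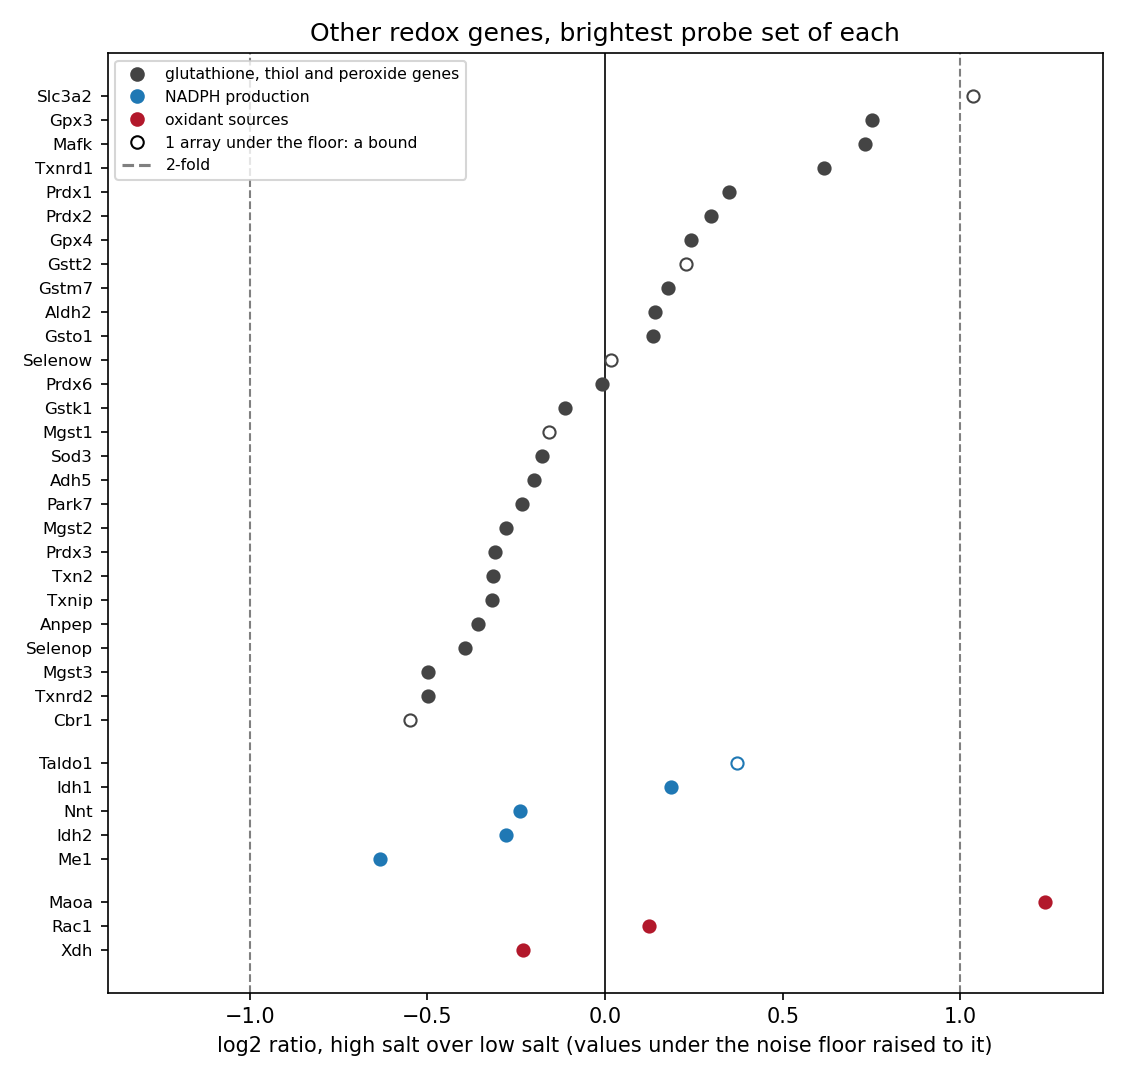
High-salt over low-salt log2 ratio (horizontal axis, values under the noise floor raised to it) in the brightest probe set of the 27 measured genes of glutathione, thiol and peroxide metabolism, 5 of NADPH production and 3 oxidant sources (rows); open circles are bounds because 1 array was under the floor, and dashed lines mark 2-fold. Only Slc3a2 and Maoa lie past a dashed line.

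NADPH supplies the electrons that keep glutathione and thioredoxin reduced. Of 14 genes of NADPH production, 8 were on the array and 5 were measured, none 2-fold higher or lower, against 3.55% and 1.90% of all measured genes, so that 0 of 5 is no result about these genes. Their median log2 ratio was -0.24, compared with -0.04 over all genes, and -0.026 with the floor at the 40th percentile of all values. The cytosolic malic enzyme Me1 read 177.8 under high salt and 275.6 under low salt, a log2 ratio of -0.63, and a second probe set of it, rc_AI171506_at, was lower as well at 125.1 and 179.9. The mitochondrial genes Idh2 (2706.4 and 3282.5) and Nnt (1338.0 and 1579.2) had log2 ratios of -0.28 and -0.24. Taldo1, of the pentose phosphate pathway, read 163.6 and 112.2, at least 1.29-fold higher, and Idh1 218.4 and 191.9.

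Among genes linked to the making of superoxide or peroxide, 3 of 11 on the array were measured. Of these, 1 was 2-fold higher and 0 were 2-fold lower, against 3.55% and 1.90% of all measured genes. With so few measured, these counts are no result about the list. Maoa, the mitochondrial monoamine oxidase, which releases hydrogen peroxide as it breaks down catecholamines and serotonin, read 2777.4 under high salt and 1178.0 under low salt, 2.36-fold higher. Its other probe set read 1776.8 and 932.8, 1.90-fold higher. Rac1 read 233.1 and 214.1, and Xdh, which encodes xanthine dehydrogenase, 161.7 and 189.7. The NADPH oxidase genes Cyba and Nox4 and the nitric oxide synthases were under the noise floor.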

How the data were processed

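Per the labels' protocols, biotin-labelled cRNA was transcribed in vitro and then fragmented. The authors deposited a linear intensity for each probe set on each array, and the software behind it is not given in the sources used here. Their 2% trimmed means differed by 0.0030%, so values were used as deposited. Members and lists were chosen with earlier results of these data known. Controls (59 of 8799 probe sets) were left out. Of the other 8740, 7006 had 1 gene symbol in the annotation of 2016, 308 several and 1426 none; 6985 of the 7006 matched a RefSeq gene, with no change of symbol. Log2 ratios were taken with values under the noise floor of 126.4 set to that floor; a ratio with 1 array under it is a bound, and with both under it none is given. Lists take a gene's brightest probe set by mean value. Named genes were all members, genes of the redox and NADPH lists past 2-fold or among the 12 largest ratios, and markers where discussed; other genes named, among them the oxidant sources and genes under the floor, were chosen after their values were seen. With 1 array per group no test was made. The steps were tested on simulated arrays. Alternatives were other floors, scalings (trimmed mean, median, quantile, loess with span 0.4), fold thresholds and choices of probe sets. Python 3.11.15, numpy 2.4.6, pandas 2.3.3, statsmodels 0.14.6 and matplotlib 3.10.9 were used.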

Additional observations from a re-analysis of the deposited data

How the results depend on the processing

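Each of the 13 measured antioxidant probe sets kept its direction in every alternative floor and scaling that gave it a ratio (89 values). Much of this was fixed in advance, because raising values to a floor cannot reverse a direction. The floors under 126.4 left these ratios unchanged. Trimmed mean scaling hardly changed them, since the trimmed means differed by 0.0030%. Median scaling moves every ratio by the same amount. That amount was smaller than any of the 13 ratios, so it could not change a direction. It moved the smallest, of Gstm2 J03914cds_s_at, from -0.054 to -0.039. Quantile normalization and loess could in practice have changed a direction, and neither did. Of the 89 values, 1 moved by more than the SD of 0.22. Gstm1 J02810mRNA_s_at fell to a log2 ratio of 0.03 with the floor at the 99th percentile of the size of values below 0, since that floor of 271.2 hides its low-salt value. The same probe set passed 2-fold with quantile normalization and with loess, where 1 antioxidant probe set was 2-fold higher. With the floor at the 40th percentile of all values, 21 antioxidant probe sets were measured and 3 were 2-fold higher (2 of Gclm and 1 of Gstm1, all with both values under the noise floor), while 414 of all probe sets were higher, 435 lower, and 2 genes of the wider redox list higher. With the floor at the 90th percentile of the size of values below 0, 57 of all probe sets were 2-fold lower and the median of the redox list was 0.14. At the 99th percentile 40 were higher, 10 lower and 0 genes of that list higher. At 1.5-fold, 1 antioxidant probe set was higher and 3 lower, with 171 and 176 of all probe sets, and 4 genes of the redox list higher; at 3-fold, 21 and 4 of all probe sets and 0 genes of that list. Without the probe sets of types that can share sequence there remained 1 antioxidant probe set, M11670_at of Cat, with a ratio below 1, and 37 of all probe sets were 2-fold higher. With the median ratio per gene in place of the brightest probe set, 0 genes of the redox list were 2-fold higher. Signal over background limits the rest: 10 of the 23 antioxidant probe sets never reached the noise floor. No paired analysis was possible because each diet has 1 array and no test was made.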

Other observations

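Some further redox genes were named after their values were seen. Prdx3, the peroxiredoxin of mitochondria, read 1227.8 under high salt and 1520.8 under low salt (log2 ratio -0.31), and its second probe set 419.9 and 617.7. Aldh2, a mitochondrial enzyme that clears reactive aldehydes, read 674.3 and 612.1 (log2 ratio 0.14). Prdx2, a peroxiredoxin that is also abundant in red blood cells, read 2038.2 and 1656.3 (log2 ratio 0.30), and the part of red cells in it was not tested. Among the genes named in this report, those with products in mitochondria thus went both ways. Sod2, Txnrd2, Txn2, Prdx3, Idh2 and Nnt were below a ratio of 1. Aldh2, Maoa and Gpx1, the last shared with the cytosol, were above it. These are not a full list of such genes.

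Respiratory chain and ATP synthase genes, chosen by symbol, mostly read lower under high salt. Of 52 measured, 48 had a ratio below 1, compared with 54.5% among all genes, and the median log2 ratio was -0.29. The choice by symbol also took in genes that are not subunits, among them Ndufaf3 (log2 ratio -0.996), Sdhaf2 (-0.35) and Atp5if1 (0.24).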
